A study of Drosophila melanogaster with 6 samples.

Results

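The imaginal disc growth factor genes Idgf1 to Idgf6 make up the chitinase-like gene family of Drosophila melanogaster. Their probe sets were picked by gene symbol, as every probe set that the platform annotation pairs with one of these 6 symbols and no other gene. The family itself was chosen with earlier results of these data known. All 6 genes were found, with 7 probe sets out of 18769 that were not controls. Idgf3 had 2 of them, and 1 further probe set, which names Idgf4 together with CG4982, was not used. RNA of whole embryos was measured on 6 arrays, 3 from wild type and 3 from trh null embryos. The wild type carried no mutation that the labels name, and the trh null embryos lacked function of trh (trachealess), a bHLH-PAS transcription factor gene of the tracheal, salivary duct and filzkörper primordia. Both genotypes were collected over 8 h, aged for 11 h more, put at stages 11 to 16 by the labels and passed through a COPAS biosorter. For wild type the sample descriptions name stage 17 as the last stage. The trh null embryos were taken as those without GFP from the balancer chromosome, and the labels do not name the allele. Since no label states that replicate arrays came from different embryo collections, the p-values reflect array-to-array spread, part of which may be technical.

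Idgf proteins are secreted and belong to the same fold family as the chitinases of glycoside hydrolase family 18. They lack chitinase activity because the glutamate that such enzymes need for catalysis is replaced. The family was first described through proteins of a conditioned medium that made cultured imaginal disc cells grow, with insulin as a partner, and was later tied to the build-up of the chitin matrix of the larval cuticle. In the embryo the tracheal tube lumen and the epidermis are among the tissues that lay down chitin.

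Values are log2 signals of the deposited table, and differences are trh null minus wild type. Signal depends on the probes of each set, so signals of different probe sets are used here only to tell dim from bright sets and to sum markers within an array, and are not read as RNA levels of one gene against another. Array medians of the log2 signal ranged from 6.16 to 6.22. Wild type replicate 2 stood apart. Its root mean square difference from the mean of the other wild type arrays was 0.492 on the log2 scale over all probe sets, against 0.287 and 0.335 for wild type replicates 1 and 3 and at most 0.219 for the trh null arrays. The members' differences and the list counts are therefore also given without it. The tracheal FGF receptor gene btl, checked as a tracheal marker, was lower in trh null embryos (5.60 ± 0.02 against 6.98 ± 0.20, SD, n = 3, limma adjusted p = 0.00153, and 0.000766 without wild type replicate 2), and trh itself had no probe set of its own and was not analysed here.

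Of the 6 genes, Idgf3 alone passed limma's moderated test at an adjusted p under 0.05, as a fall in trh null embryos, so 5 did not pass and 0 rose. Over all 11981 genes measured by a probe set of their own, 7.31% fell and 6.79% rose. At an unadjusted p under 0.05, 1 Idgf gene was lower and 0 were higher, against 15.3% and 15.1% of all genes. The median log2 difference was -0.29 over the 6 genes and 0.00080 over all genes. Without wild type replicate 2, 4 of the 6 fell, Idgf1, Idgf2, Idgf3 and Idgf5, and none rose, while 14.8% of all genes fell and 17.4% rose. The median of the 6 genes was then -0.53, and that of all genes 0.027. The 3 added calls thus came in a fit that also called more genes overall. In that comparison every trh null array lay below wild type replicates 1 and 3 for 4 of 6 members and for 26.6% of all genes. With array weights, which count wild type replicate 2 least, the same 4 genes fell and Idgf6 rose, while 17.4% of all genes fell and 19.6% rose. In bulk RNA fewer cells of a type and less RNA per cell cannot be told apart.

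**Figure D1:**
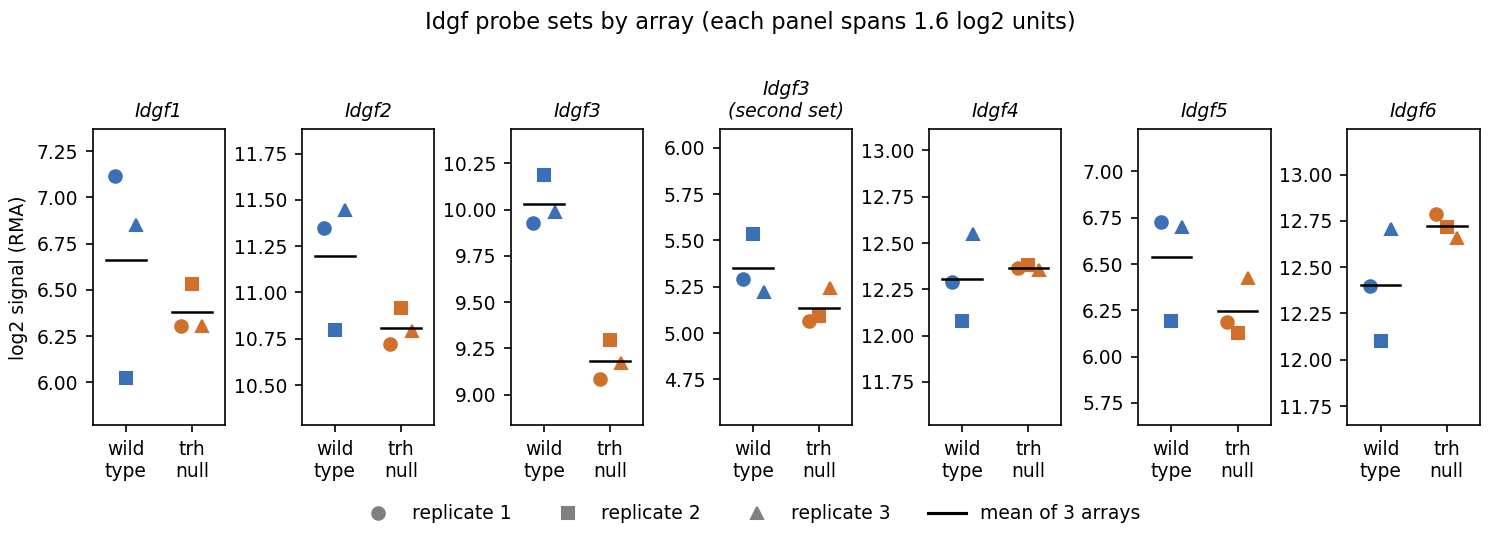
Log2 signal of each Idgf probe set (vertical axes, each spanning the same range of log2 units) on the 3 wild type arrays (blue) and the 3 trh null arrays (orange), with symbols for the replicate number and a line for the mean. Only the brighter Idgf3 probe set has every trh null array below every wild type array, and wild type replicate 2 (blue square) is the lowest wild type array for Idgf1, Idgf2, Idgf4, Idgf5 and Idgf6.

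Idgf3 encodes a secreted family member that has been linked to haemolymph clotting and wound repair. Its brighter probe set gave 9.93, 10.19 and 9.99 on the wild type arrays and 9.08, 9.30 and 9.17 on the trh null arrays. Every trh null array lay below every wild type array, which held in that direction for 19.4% of all genes. The difference was -0.85 (SE 0.10, 95% interval -1.10 to -0.60), a 1.80-fold lower signal, with a limma adjusted p of 0.00500. The exact two-sided permutation test gave p = 0.1, the smallest that 3 arrays against 3 allow. Leaving out each array in turn left the call in place (limma adjusted p at most 0.0375), and without wild type replicate 2 the difference was -0.77. The second Idgf3 probe set was dim, below the median of all probe sets, 6.21. It read 5.29, 5.54 and 5.22 on the wild type arrays and 5.07, 5.09 and 5.24 on the mutant arrays. These groups overlapped at trh null replicate 3, and the difference of -0.22 (95% interval -0.48 to 0.04) did not pass (limma adjusted p = 0.262). The mean over both probe sets passed with a difference of -0.53. The suffix of the brighter set's identifier, s_at, marks probes that match more than 1 transcript, so signal from other transcripts cannot be left out for it.

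Idgf1 and Idgf2 lie beside Idgf3 on chromosome arm 2L and belong with it to the genes first described in conditioned medium of disc cells. Idgf1 gave 7.11, 6.02 and 6.85 on the wild type arrays and 6.30, 6.53 and 6.30 on the trh null arrays. Wild type replicate 2 was the lowest of all 6 arrays, while the other wild type arrays lay above every trh null array. The difference was -0.28 with a 95% interval from -0.95 to 0.38 (limma adjusted p = 0.570), and it was -0.60 without wild type replicate 2 (interval -0.88 to -0.32, limma adjusted p = 0.0112). Idgf2 showed a like order, at 11.35, 10.80 and 11.44 for wild type against 10.72, 10.92 and 10.79 for trh null. Its wild type replicate 2 lay among the trh null values. The difference of -0.39 (95% interval -0.82 to 0.04) did not pass (limma adjusted p = 0.228), whereas without that array it was -0.59 (interval -0.79 to -0.38, limma adjusted p = 0.00439).

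**Figure D2:**
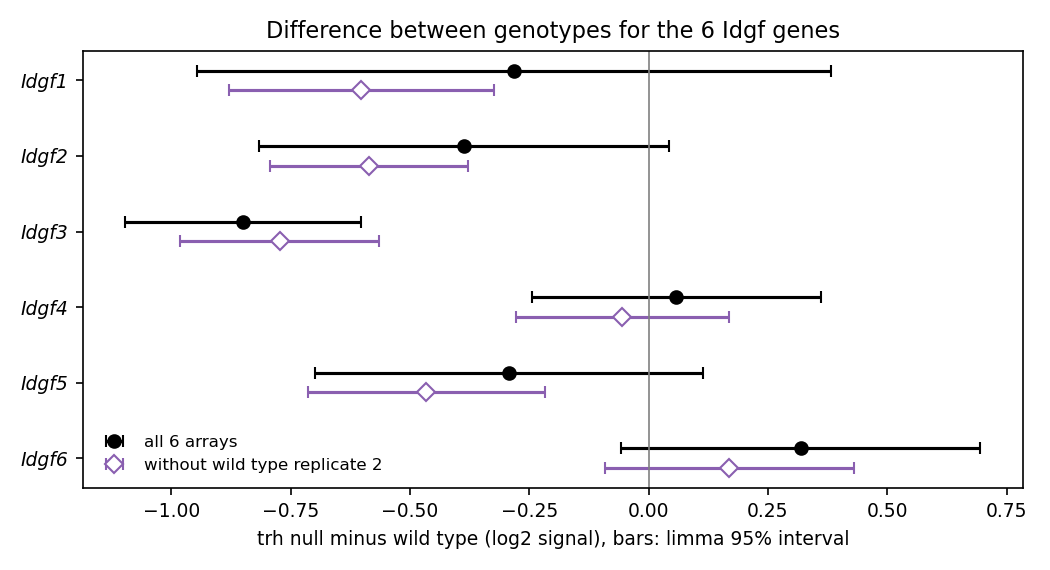
Difference between genotypes in log2 signal (horizontal axis) for each Idgf gene, with all 6 arrays (filled circles) and without wild type replicate 2 (open diamonds); bars are limma 95% intervals. With all arrays only the interval of Idgf3 lies wholly below 0, and without that array those of Idgf1, Idgf2 and Idgf5 do too, while the intervals of Idgf4 and Idgf6 span 0 in both fits.

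Idgf5, on chromosome arm 2R, read 6.73, 6.19 and 6.70 on the wild type arrays and 6.19, 6.13 and 6.42 on the mutant arrays. Here too wild type replicate 2 lay within the trh null range and the other wild type arrays above it. The difference was -0.29 (95% interval -0.70 to 0.11, limma adjusted p = 0.327), and -0.47 without that array (interval -0.71 to -0.22, limma adjusted p = 0.0190). Signal for Idgf5 and Idgf1 was near the median of all probe sets, where background can hide part of a change.

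Idgf4 and Idgf6 had high signal in both genotypes. Idgf4, on the X chromosome, gave 12.29, 12.08 and 12.55 on the wild type arrays and 12.36, 12.38 and 12.35 on the trh null arrays. The trh null values lay inside the wild type range, with an SD of 0.01 against 0.23. Its difference was 0.06 with a 95% interval of -0.25 to 0.36 (limma adjusted p = 0.817), which leaves room for a fold of 0.844 to 1.28. Without wild type replicate 2 the sign turned, to -0.05 (interval -0.28 to 0.17). The Idgf4 probe set is also an s_at set, so signal from other transcripts cannot be left out for it either. Idgf6, on 2R and first described as DS47, a protein that cultured Schneider cells secrete and that fat body and haemocytes make, gave 12.40, 12.10 and 12.71 for wild type against 12.79, 12.72 and 12.66 for trh null. Wild type replicate 3 overlapped the trh null arrays, and the other wild type arrays lay below them. The difference of 0.32 (95% interval -0.06 to 0.69) did not pass (limma adjusted p = 0.253). It was 0.17 without wild type replicate 2, and 0.47 without wild type replicate 3 (limma adjusted p = 0.0712). As the plot of Idgf values by array shows, wild type replicate 2 was the lowest wild type array for 5 of 6 members, against 32.9% of all genes, and the highest for Idgf3. The wild type SD exceeded the trh null SD for 6 of 6 members and for 81.0% of all genes.

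Differences between members were compared through the log2 ratio of 2 members within each array, of which only the change between genotypes is given. Of the 15 pairs, 10 had ratios whose trh null and wild type values did not overlap, and of all pairs of measured genes 42.1% did. The exact two-sided permutation p was 0.1 for each of these 10 pairs, the smallest possible, or 0.15 after Benjamini-Hochberg adjustment over the 15 pairs, so no pair could pass. Idgf3 relative to Idgf6 had the largest change in these 15, by -1.17 on the log2 scale and by -0.94 without wild type replicate 2. Relative to Idgf4 the change of Idgf3 was -0.91 (-0.72 without wild type replicate 2). The change of Idgf2 relative to Idgf3 was 0.46, and it was 0.19 without that array. The log2 ratio of Idgf2 to Idgf3 had an SD of 0.00955 over the trh null arrays and of 0.478 over the wild type arrays. That trh null SD was the smallest of the 15 pairs, and the largest was 0.262, for Idgf1 to Idgf5. The wild type spread of Idgf2 to Idgf3 came mainly from replicate 2, which lay apart from replicates 1 and 3. For Idgf1 relative to Idgf2 the genotypes overlapped, with a change of 0.10 that turned to -0.02 without wild type replicate 2. For Idgf4 relative to Idgf6 the change was -0.26 (-0.22 without it).

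Idgf1, Idgf2 and Idgf3 follow each other on 2L with no other annotated gene between them in the RefSeq gene table, flanked by CG5888 and by dac (dachshund, a nuclear factor gene of eye and leg development). The flanking genes did not share 1 direction. CG5888 was higher in trh null embryos, with a difference of 0.53 that missed the threshold (limma adjusted p = 0.0522) and passed once wild type replicate 2 was left out (0.39, limma adjusted p = 0.0124). The dac signal was lower by -0.40 (limma adjusted p = 0.0866), and by -0.46 without that array (limma adjusted p = 0.0299). Next to Idgf4 the differences were -0.20 for CG1986 and 0.05 for CG1791. Next to Idgf5 they were 0.19 for BomS6 and -0.02 for GstE10, and next to Idgf6 they were 0.11 for CG34458 and -0.13 for Pgant9, none of which passed.

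**Figure D3:**
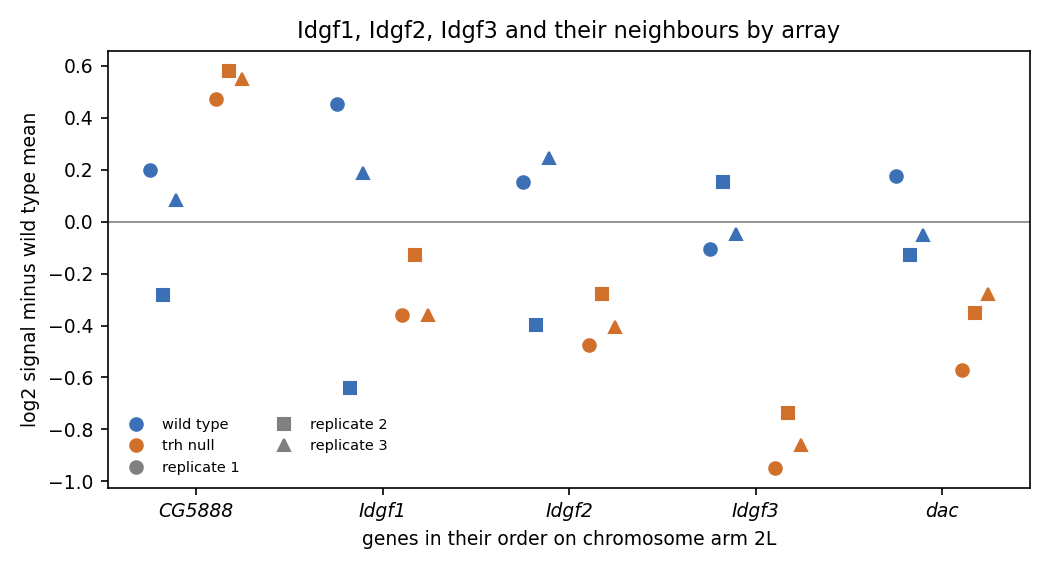
Log2 signal minus the wild type mean of each gene (vertical axis) for the 5 neighbouring genes in their order on 2L (horizontal axis), by genotype (colour) and replicate (symbol). The trh null arrays lie below the wild type arrays for Idgf3 and dac and above them for CG5888, and wild type replicate 2 (blue square) lies below the trh null arrays for Idgf1 and within them for Idgf2.

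Likeness of profiles was measured as the root mean square difference between log2 values centred on their own mean over the 6 arrays, among 5066 other genes with a symbol beyond a CG number and a mean signal at or above the median. Nearest to Idgf3 were hiro (0.0488), pst (0.0516) and Csas (0.0592), the last for CMP-sialic acid synthase. Idgf4 was nearest to mAcon1 (0.0243), bsd and Mekk1, and Idgf6 to HDAC1 (0.0491), Idh3a and Alr. The nearest genes were ATP8A (0.0672), cysu and Rcd2 for Idgf2, geko (0.0454), Ret and osp for Idgf5, and RIC-3 (0.104), LpR2 and Ppn for Idgf1. Among the members themselves the closest were Idgf2 and Idgf5 (0.137), Idgf4 and Idgf6 (0.141) and Idgf1 and Idgf2 (0.170), and the farthest were Idgf3 and Idgf6 (0.636). These profiles share the same 6 arrays and the deviation of wild type replicate 2, and so many genes were searched that close matches arise easily.

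Among the true chitinases of family 18, Cht5 fell and 9 of 10 measured genes did not pass. Cht5, a moulting chitinase gene, was at 10.12, 10.22 and 9.93 on the wild type arrays and 5.58, 5.89 and 5.89 on the mutant arrays, with no overlap. The median log2 difference of the list was -0.12, against -0.29 for the Idgf genes. In the chitin synthesis list the chitin synthase gene kkv (-0.44) and exp (-0.92), which is needed for chitin deposition, fell, Gnpnat (0.79), an acetyltransferase gene of the precursor pathway, rose, and 5 of 8 did not pass. A second, dim probe set for exp gave a difference of -0.004. The largest difference of the list in size, -1.52 for reb, did not pass (limma adjusted p = 0.0773). Among genes of chitin deacetylation and organisation Cda4 (-0.97), a chitin deacetylase gene, fell and 5 of 6 did not pass. Of 9 obstructor genes, which encode chitin-binding proteins, Gasp (-1.53), obst-B (-1.46) and obst-H (-0.99) fell and 6 did not pass. In either direction 14.1% of all genes passed. Without wild type replicate 2 the counts were 3 fallen and 1 risen for chitinases, 4 and 2 for chitin synthesis, 4 and 0 for deacetylation and organisation, and 6 and 0 for obstructor genes, while 32.2% of all genes passed. Leaving out any of trh null replicates 1, 2 and 3 removed the calls for kkv, Gnpnat, Cda4 and obst-H, and leaving out wild type replicate 1 those for kkv, Gnpnat and obst-H (limma adjusted p from 0.0550 to 0.102 over these). That for exp was lost without trh null replicate 2 or 3 (0.0502 and 0.0506). With 1 trh null array left out, 0 to 1 calls were left for chitin synthesis, 0 for deacetylation and organisation and 2 for obstructor genes.

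**Figure D4:**
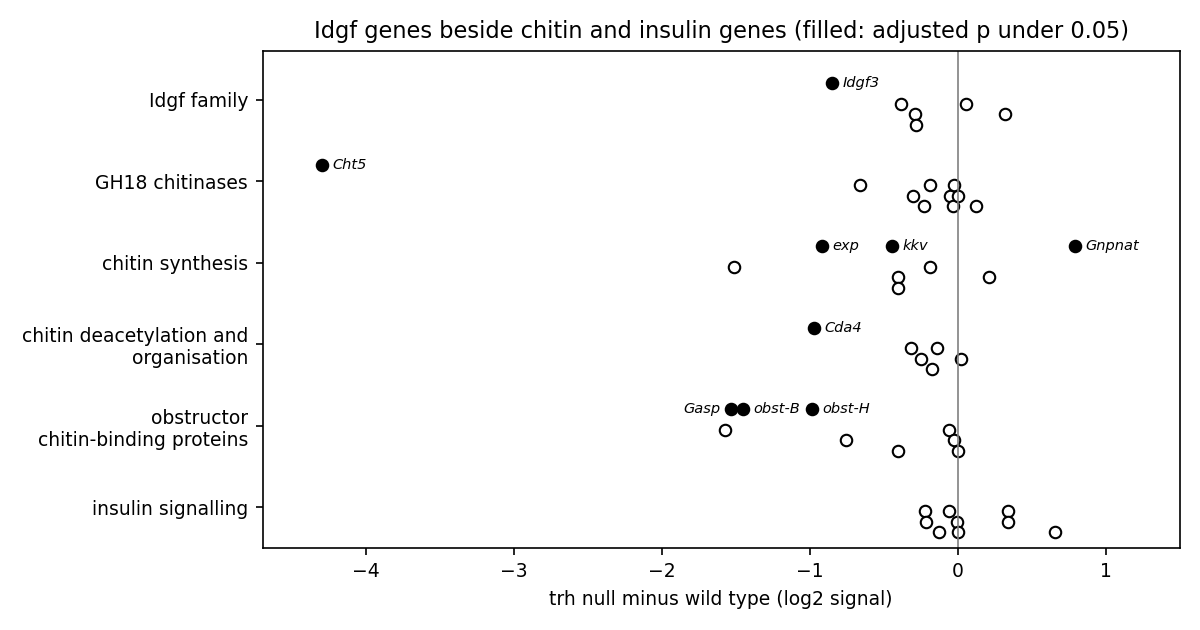
Difference between genotypes in log2 signal (horizontal axis) for each measured gene of the Idgf family and of the lists for chitin and insulin genes (rows); filled points passed at an adjusted p under 0.05 and carry their names. Idgf3 at -0.85 sits near exp, Cda4 and obst-H, and Cht5 lies far to the left at -4.30.

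Genes of insulin signalling, the pathway named as partner of Idgf proteins in culture, showed no call. Of 9 measured genes 0 passed limma's test, with 1 lower and 0 higher at an unadjusted p under 0.05, and the count was also 0 in each other fit run for this list, namely limma with trend and robust prior, rescaling, a filter on dim probe sets, the replicate block and each array left out. The kinase genes Pdk1 and Akt, the brightest of the list, had differences of -0.06 and 0.34 (limma adjusted p = 0.815 and 0.326). In both genotypes 4 of the 9 genes were below the median of all probe sets.

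Fat body and haemocytes are both known to make Idgf proteins, and their markers were read beside the family. Of 4 measured fat body markers 0 passed in limma's test (none at an unadjusted p under 0.05 either). Without wild type replicate 2, 1 rose, the lipid droplet protein gene Lsd-1 (0.44, limma adjusted p = 0.00528). The summed linear signal of the 4 was 6411 to 17385 on wild type arrays and 15386 to 16285 on trh null arrays. The low end came from wild type replicate 2, where apolpp, the lipophorin gene, read 12.42 against 14.04 and 13.90 on wild type replicates 1 and 3. The fat body markers Fbp1 and Lsp2 were dimmer than the median probe set (6.21) whatever the genotype. Of 12 haemocyte markers 4 rose, Pxn (0.94), Sr-CI (1.16), PPO2 (0.61) and gcm (0.47), none fell, and over all genes 6.79% rose. The other 8 did not pass, and 3 of the 12 had negative differences, down to -0.27. Without wild type replicate 2, 5 rose, with lz added (0.33), against 17.4% of all genes. The summed linear signal of the list was 11802 to 12871 for wild type and 12985 to 14324 for trh null. Bright probe sets weigh most in this sum, so it does not describe the list as a whole. In linear signal at the mean log2 value, PPO2 stood at 2133 for wild type and 3261 for trh null. Pxn stood at 984 and 1890, PPO1 at 2416 and 2541, and Col4a1, which was lower in trh null, at 5569 and 4627. Of the 4 calls made with all arrays only 1, for Pxn, held without trh null replicate 2 or 3. Hml, eater, He and lz were likewise below that median. A second, dim probe set for Pxn did not pass (-0.04, limma adjusted p = 0.837). The control probe sets moved with genotype as well, with a log2 difference of 3' over 5' actin signal of 1.36 ± 0.09 for wild type and 0.76 ± 0.03 for trh null (SD, n = 3). The part of these markers and of RNA quality in the Idgf values was not tested.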

How the data were processed

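Whole-embryo RNA was labelled from its 3' end and hybridised to 6 one-colour Affymetrix Drosophila Genome 2.0 arrays, per the labels' protocols. The deposited values are on a log2 scale, with base 2 inferred from their range; RMA and Partek are named in the submitters' processing notes, without versions. They were used as deposited. RMA as generally run makes the quantiles of arrays equal, so a change shared by all transcripts would not show. Of 18952 probe sets, 183 controls were left out. The platform annotation named 1 gene for 13646, several for 402 and none for 4721. A gene is represented by its brightest probe set. Neighbours and older symbols came from the RefSeq gene table (Release 6 plus ISO1 MT), and no coordinates are printed because the arrays carry no build. No sequences were used here.

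Genotype was the only term of the limma fit (version 3.58.1 in R 4.3.3, lmFit and eBayes), with Benjamini-Hochberg adjustment over 18769 probe sets and a threshold of 0.05. Single values and ratios were compared with exact permutation tests (scipy 1.17.1). The members, the lists and the genes named were chosen with earlier results of these data known. The genes named were all members, the 3 nearest profiles, the nearest measured gene on each side, and up to 4 passing genes per list, or the 2 brightest where none passed. The low fat body and haemocyte markers, Lsd-1, lz, PPO1, Col4a1 and elav were named after their values were seen. So were reb, obst-E, the dim obstructor genes, sage, PH4alphaSG1 and PH4alphaSG2. Alternatives were another prior, 3 rescalings, a filter on dim probe sets, the replicate block, array weights, a threshold of 0.01, the mean over probe sets and leaving out each array. The number of arrays, 3 per genotype, limits the precision.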

Additional observations from a re-analysis of the deposited data

How the results depend on the processing

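The fall of Idgf3 kept its direction and its call in all 14 alternatives, with differences from -0.90 to -0.53 and limma adjusted p from 0.000397 to 0.0375. Array weights, which gave wild type replicate 2 a weight of 0.136, made 5 of 6 members pass: Idgf1 (-0.64), Idgf2 (-0.51), Idgf3, Idgf5 (-0.44) and, as a rise, Idgf6 (0.28), while 17.4% of all genes fell and 19.6% rose. With 1 array left out, 1 to 4 members passed, and the log2 differences ran from -0.60 to -0.056 for Idgf1, -0.59 to -0.26 for Idgf2, -0.47 to -0.20 for Idgf5 and -0.055 to 0.18 for Idgf4, the negative value being that without wild type replicate 2. Over all probe sets 2219 passed, 738 at an adjusted p under 0.01, 6003 with array weights and 704 to 5001 with 1 array left out. Under the same omissions 1 to 4 chitinase, 0 to 6 chitin synthesis, 0 to 4 deacetylation and organisation and 2 to 6 obstructor genes passed. With the replicate block 726 probe sets and 0 chitin synthesis genes passed, and the Idgf3 call remained (limma adjusted p = 0.0270). Deviations of same-numbered arrays from their genotype means correlated at -0.37, -0.06 and -0.05 over probe sets, and those of other pairs at -0.18 to 0.37. Such deviations sum to 0 within a genotype, so these correlations cannot show whether same-numbered arrays were paired. Omissions also leave fewer arrays; beyond that the cause was not tested.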

Other observations

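Markers of other tissues that the whole embryos hold were read with the same limma fit, in which 7.31% of all genes fell and 6.79% rose. Of 6 tracheal markers btl and Gasp fell and dysf rose, and 3 did not pass. All 3 dysf probe sets were dim, below the median of all probe sets. Another of them fell (-0.37), and the last did not pass (-0.02). Among 5 epidermal markers the ABC transporter gene snu (-2.69) and snsl (-1.26) fell and grh (0.80) rose. Of 3 muscle markers TpnC73F (-2.33) and up (-1.14), the troponin C and troponin T genes, fell. Of 5 salivary gland markers fkh (0.93) and sens (0.74) rose. The other 3 did not pass, with differences of -0.06 for sage, -0.22 for PH4alphaSG1 and 0.09 for PH4alphaSG2. A second, dim probe set for TpnC73F did not pass (-0.13, limma adjusted p = 0.415). Leaving out any 1 of the trh null arrays removed the calls for dysf, snsl, grh and sens. The fkh call was lost without trh null replicate 2 or 3, the dysf call without wild type replicate 1 too, and the sens call without wild type replicate 3 too. None of 2 midgut and 3 neural and glial markers passed in limma's test, with 0 and 1 at an unadjusted p under 0.05. The latter was elav, a neuronal RNA-binding protein gene, with a difference of 1.65 (limma adjusted p = 0.0819). It read 11.05, 10.76 and 9.11 on the wild type arrays and 11.85, 11.92 and 12.10 on the trh null arrays. It passed without wild type replicate 2 (1.88, limma adjusted p = 0.0357) and without wild type replicate 3 (1.05, limma adjusted p = 0.0136). Without wild type replicate 2, 3 tracheal markers fell and 1 rose, 3 muscle markers fell, and the epidermal, salivary gland and midgut counts were as before, while 14.8% of all genes fell and 17.4% rose.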
